A study of Mus musculus with 6 samples.

Results

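The circular RNAs (circRNAs) of 5 host genes were described in mouse ovary: the estrogen receptor genes Esr1 and Esr2, the thyroid hormone receptor gene Thrb, the orphan nuclear receptor gene Nr5a2, and Greb1, a gene whose transcription responds to estrogen. All 45 circles that the authors' catalogue assigns to these gene names were taken, out of 27999 circles from 7411 hosts. The hosts were chosen by the deposited fold changes and p-values of their circles in the comparison of group A with group B, and circles of 4 of them are marked as different there, so the values of that comparison are given as a description, with no test. Whole ovaries were collected from mice of the inbred strain C57BL/6, from adult animals at 6 weeks (3 libraries) and from neonatal animals at postnatal day 5 (3 libraries). No genotype other than the strain and no treatment is given for either age, and the labels do not say whether a library came from 1 animal or from pooled ovaries. The RNA was digested with RNase R, which removes linear RNA and spares closed circles, so every value refers to RNA treated in this way. The authors' deposited table compares a group A with a group B. The letters match no sample label, so no value below is tied to an age. Values per library and group means are likewise not analysed here, and what is given is the authors' log2 fold change of A over B, its p-value, and whether a circle had values in both groups or in 1 group only.

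A circRNA forms when the donor end of an exon is spliced back to the acceptor end of the same or an upstream exon, and it is recognised by reads that span the resulting back-splice junction. Nuclear receptors are transcription factors that bind DNA through a pair of zinc fingers, each holding a zinc ion between 4 cysteines, and that bind their ligand through a domain nearer the carboxyl end. In the ovary, estrogen receptor beta (Esr2) is known chiefly from granulosa cells, and estrogen receptor alpha (Esr1) from theca, stromal and surface epithelial cells. Nr5a2 (liver receptor homolog 1) drives steroid synthesis genes in granulosa and luteal cells and is needed for ovulation, thyroid hormone receptor beta (Thrb) mediates responses to thyroid hormone, and GREB1 is known as a cofactor of the estrogen receptor from human breast cancer cells.

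The 6 circles that the authors marked as different are shown by their back-splice junctions, the letters that set each circle apart from its linear transcript. Each line gives the last 20 nt of the donor exon in lower case and the first 20 nt of the acceptor exon in capitals, 5′ to 3′ on the strand of the gene, from the GENCODE M21 transcripts of the GRCm38 build.
Esr1 circRNA20778: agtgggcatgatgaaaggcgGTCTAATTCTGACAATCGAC
Thrb circRNA15589: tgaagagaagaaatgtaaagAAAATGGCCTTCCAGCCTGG
Thrb circRNA6965: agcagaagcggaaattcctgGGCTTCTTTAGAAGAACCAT
Nr5a2 circRNA11800: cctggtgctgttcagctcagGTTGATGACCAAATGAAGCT
Greb1 circRNA255: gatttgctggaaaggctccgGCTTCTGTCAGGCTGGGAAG
Greb1 circRNA4320: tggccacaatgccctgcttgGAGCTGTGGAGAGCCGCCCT

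These junctions lie at chr10:4746617-4783973 (Esr1, plus strand), chr14:17963061-17963321 and chr14:18008569-18011270 (Thrb, plus strand), chr1:136882264-136890802 (Nr5a2, minus strand), and chr12:16724758-16733454 and chr12:16733278-16740254 (Greb1, minus strand), as the authors' table gives them, counted from 1. All but Greb1 circRNA4320 lie wholly within coding sequence. Exon 4, where circRNA4320 begins, holds the Greb1 start codon, so its capitals are 5′ UTR.

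The first zinc finger of each receptor is shown because it tells where the DNA-binding part of the host falls among the circles. The letters run from the first to the fourth cysteine codon of the finger, with the 4 cysteine codons in capitals.
Esr1 finger 1: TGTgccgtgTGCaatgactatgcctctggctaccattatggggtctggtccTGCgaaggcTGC
Esr2 finger 1: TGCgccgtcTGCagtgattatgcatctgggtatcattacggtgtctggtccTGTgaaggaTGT
Thrb finger 1: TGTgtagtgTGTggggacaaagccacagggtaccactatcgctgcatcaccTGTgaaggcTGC
Nr5a2 finger 1: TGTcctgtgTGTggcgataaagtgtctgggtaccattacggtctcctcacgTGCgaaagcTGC

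Esr1 and Esr2 matched at 51 of these 63 nt (81.0%), and the other pairs at 37 to 44 nt. In all 4 receptors the first finger lay within 1 exon and the second finger within the next one (exons 4 and 5 of Esr1-204, exons 3 and 4 of Esr2-201, exons 5 and 6 of Thrb-201, exons 4 and 5 of Nr5a2-201). A circle can therefore hold both fingers, either of them or none.

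Of the 24 receptor circles, 9 held both fingers whole, 1 held the first finger alone, 6 held the second finger alone and 8 held neither. Both fingers were in 2 of 5 Esr1 circles, 3 of 10 Esr2 circles, 1 of 4 Thrb circles and 3 of 5 Nr5a2 circles. The marked Esr1 circle is the shortest unit with both: its 2 exons (308 nt) are the 2 finger exons. The marked Thrb circRNA6965 held the second finger without the first, and Thrb circRNA15589 and Nr5a2 circRNA11800 held neither. Nr5a2 circRNA11800 joins exons 7 and 8, past both fingers, where the ligand-binding domain is encoded.

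**Figure D1:**
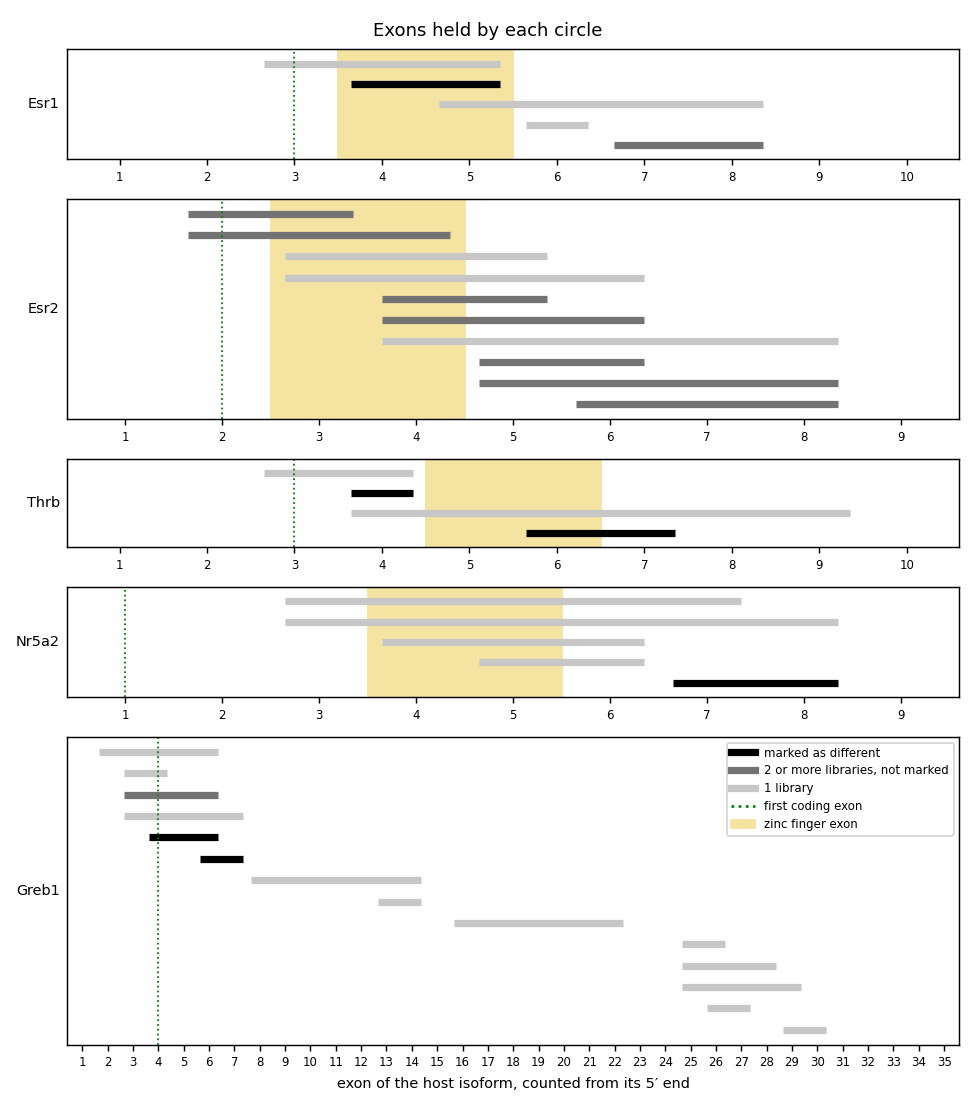
Exons held by the 38 exonic circles that could be placed on 1 isoform of their host, with exon number on the x axis and a bar per circle; black bars are marked as different by the authors, dark grey bars have values in 2 or more libraries, light grey bars in 1 library. Yellow bands are the exons of the zinc fingers, and the dotted line is the first coding exon. No bar reaches exon 1, which has no acceptor, or the last exon, which has no donor, as the annotation fixes.

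Of the 40 exonic circles, 38 had both ends on exon ends of a single protein-coding isoform per host (Esr1-204, Esr2-201, Thrb-201, Nr5a2-201 and Greb1-212). The other 2 used alternative acceptors of Greb1, one 3 nt into exon 18 (circRNA23657) and the other 84 nt into exon 16 (circRNA23658). None of the 38 circles held the stop codon, which lies in the last exon of each host isoform. A last exon has no donor, so this was fixed by the annotation. The start codon was in 9 circles: 5 of Greb1, 2 of Esr2 and 1 each of Esr1 and Thrb. In Nr5a2-201 it lies in exon 1, which has no acceptor, so no circle could hold it. Coding sequence alone made up 29 of the 38 circles (76.3%), against 83.6% of the 25798 exonic circles of the catalogue that were placed on their named isoform. These shares are not measured alike, since the members were scored on a coding isoform and some named isoforms are noncoding. On its named isoform, a noncoding transcript, the marked Esr1 circRNA20778 holds no coding sequence. The exonic length of the 38 circles ran from 261 to 1365 nt with a median of 608 nt, against 469 nt in the catalogue, and both medians of exon number were 3.

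Among the 29 coding circles, 15 (51.7%) had a length divisible by 3, so that the host's reading frame closes on itself. The share was 39.5% of all 21561 coding circles, which were scored on their named isoforms and so not in the same way. In all 15 the host's frame ran round the circle with no stop codon. Apart from a codon across the junction, these are the host's own codons, so this outcome was all but fixed in advance. Circles of a host share exons, so these 29 are not independent, and no claim of translation follows from an open frame. The marked Thrb circRNA15589, Thrb circRNA6965 and Greb1 circRNA255 were of this kind, with 261, 354 and 360 nt. The marked Esr1 circRNA20778 (308 nt) and Nr5a2 circRNA11800 (268 nt) were not.

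Thrb circRNA15589 is exon 4 of Thrb-201 closed on itself, and it is printed whole because it carries the largest finite fold difference among the 45 circles. The capitals mark the first and the last 20 nt, which meet at the junction.
Thrb circRNA15589: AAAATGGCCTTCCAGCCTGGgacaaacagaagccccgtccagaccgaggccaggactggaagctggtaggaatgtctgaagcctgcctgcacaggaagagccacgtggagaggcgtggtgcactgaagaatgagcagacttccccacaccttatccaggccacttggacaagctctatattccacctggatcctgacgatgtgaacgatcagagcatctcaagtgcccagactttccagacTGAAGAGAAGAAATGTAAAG

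Its 261 nt (53.3% G and C) lie upstream of the zinc finger exons. The exon is annotated whole in 3 of 6 protein-coding Thrb isoforms and is absent from Thrb-202, which starts further downstream with a first exon of its own. The exons of circRNA6965 are in Thrb-202 as well as in Thrb-201 and Thrb-203. The circle of exon 4 can therefore come only from transcripts that start upstream of it, while circRNA6965 can come from either kind.

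All 4 Thrb circles were lower in group A than in group B in the authors' deposited table. Thrb circRNA15589 had a log2 fold change of -5.60 for A over B (p = 0.0414), a 48.5-fold lower mean in group A, in the authors' deposited table. Thrb circRNA6965 had a log2 fold change of -3.52 (p = 0.0227), an 11.4-fold lower mean in group A, in the authors' deposited table. These folds are ratios of means of 3 libraries per group as the authors computed them, and the spread behind them is not analysed here. The other 2 Thrb circles, circRNA21031 (exons 3 and 4) and circRNA24389 (exons 4 to 9, the largest Thrb circle), were listed at 0 in group A and had a value in 1 library of group B in the authors' deposited table. Circles circRNA21031, circRNA15589 and circRNA24389 overlap in exon 4, and circRNA15589 shares its acceptor with circRNA24389 and its donor with circRNA21031.

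Esr1 circles pointed in different directions. The marked circRNA20778, which holds both zinc fingers, was listed at 0 in group A and had values in group B in the authors' deposited table (p = 0.0124). A p this small cannot arise with values in only 2 of the 3 libraries of a group, for which an unequal-variance test gives at least 0.184, so circRNA20778 had values in all 3 libraries of group B if the authors' unnamed test is of that kind. By the same reading at least 261 circles of the catalogue had values in every library of one group and in none of the other, at least 60 of them in group B. For the 4 other members with values in more than 1 library of a single group, the p does not tell 2 libraries from 3. The other 4 Esr1 circles went the opposite way, with values in group A and 0 in group B in the authors' deposited table. Esr1 circRNA5409 (exons 7 and 8, past the fingers) had values in more than 1 library of group A and 0 in group B in the authors' deposited table (p = 0.19). Esr1 circRNA638, the largest Esr1 circle by exon number (exons 5 to 8), circRNA5408 (exons 3 to 5) and circRNA14345 (exon 6) had a value in 1 library of group A each and 0 in group B in the authors' deposited table. Circles circRNA5408 and circRNA20778 close at the same donor, the end of exon 5, and had values in opposite groups. With circRNA5408 in 1 library, its direction is not established. Esr1 had no circle with values in both groups, and so no finite fold change.

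Esr2 had the most circles of the receptors, and none was marked. Its 10 circles used only 5 acceptors and 5 donors, and up to 3 circles shared a site. The circles with most shared sites were circRNA322 (exons 4 to 8, the one with most exons) and circRNA4473 (exons 4 to 6), each sharing its ends with 4 other circles. The authors' deposited table put the A over B log2 ratio of Esr2 circRNA4473 at -1.33 (p = 0.621). Esr2 circRNA322 had a value in 1 library of group A and 0 in group B in the authors' deposited table. The circle of exons 2 and 3, circRNA323, holds the start codon and the first finger alone. Of the 11 circles with values in both groups it had the log2 fold change nearest 0 in the authors' deposited table (-0.06, p = 0.949). Going 1 exon further, circRNA4475 holds both fingers, and the authors' deposited table put its log2 fold change at -0.79 (p = 0.305).

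Esr2 circles past the fingers lay on either side. By the authors' deposited table circRNA13584 (exons 5 to 8) had a log2 fold change of -2.08 (p = 0.282). For circRNA4472 (exons 5 and 6) the authors' deposited table gave 0.91 (p = 0.563), the only finite log2 fold change above 0 among the 45 circles. These 2 circles share the acceptor of exon 5. Esr2 circRNA22192 (exons 6 to 8) was listed at 0 in group A and had values in more than 1 library of group B in the authors' deposited table (p = 0.19). The same held for circRNA20596 (exons 4 and 5), which holds the second finger (p = 0.19 in the authors' deposited table). Of the 7 Esr2 circles with values in at least 2 libraries, 6 were lower in group A, and all 3 from 1 library were in group A.

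Nr5a2 circRNA11800 had the smallest p of the 45 circles. Its log2 fold change for A over B was -2.54 (p = 0.00399), a 5.82-fold lower mean in group A, in the authors' deposited table. It shares its donor, the end of exon 8, with circRNA25744 (exons 3 to 8, the largest Nr5a2 circle), which was listed at 0 in group A and had a value in 1 library of group B in the authors' deposited table. The circles of exons 3 to 7 (circRNA25745) and 4 to 6 (circRNA25746) followed the same pattern, with a value in 1 library of group B each. In the other direction the authors' deposited table had only circRNA19461 (exons 5 and 6), with a value in 1 library of group A and 0 in group B. The marked circle was thus the only Nr5a2 circle with values in more than 1 library.

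Greb1 was the richest host. It had 21 circles, 74 of the 7411 hosts (0.999%) had more, and the median host had 2. Of the 21, the authors' deposited table had 20 lower in group A, with 17 of them listed at 0 there, but 17 of the 21 rested on 1 library (16 in group B). The authors' deposited table gave Greb1 circRNA255 (exons 6 and 7) a log2 fold change of -2.66 for A over B (p = 0.0424), and Greb1 circRNA4320 (exons 4 to 6) one of -3.48 (p = 0.0498). Greb1 circRNA4321 adds exon 3 to it and shares sites with 4 other circles. Its log2 fold change of -2.99 lay between those of the 2 marked circles, but its p was 0.475 in the authors' deposited table, and it was not marked.

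All 3 Greb1 circles with values in both groups held exon 6 and lay between exons 3 and 7. Circles from 1 library reached from exon 2 to exon 30 of 35. Among them were the circles with most exons, circRNA20571 (exons 16 to 22) and circRNA23658 (7 exons, by the alternative acceptor of exon 16), both listed at 0 in group A in the authors' deposited table. The sole Greb1 circle toward group A, circRNA13478 (exons 8 to 14), also has 7 exons and had a value in 1 library of group A and 0 in group B in the authors' deposited table. Exons 25 to 30 gave 5 circles, each listed at 0 in group A and with a value in 1 library of group B in the authors' deposited table. Whether the circles from 1 library share that library is not analysed here.

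Greb1 was also the only one of the 5 hosts with intronic circles (ciRNAs), a class understood as lariat introns that escape debranching and keep the intron's 5′ end joined to a branch point. They made up 5 of its 21 circles (23.8%), against 6.63% of the catalogue. Of 7411 hosts, 9 had more and 22 had at least as many. All 5 ended exactly at the annotated 5′ splice site of their intron. Intron 16 of Greb1-212 (569 nt) gave 3 of them, ciRNA1314, ciRNA1022 and ciRNA1315, whose other ends lay 24, 25 and 47 nt short of the 3′ splice site. All 3 were listed at 0 in group A in the authors' deposited table, and ciRNA1022 alone had values in more than 1 library of group B (p = 0.196). The ends of ciRNA1314 and ciRNA1022 differ by 1 nt, so the 2 may be 1 molecule listed under 2 names, and their values should not be read as separate measurements. The count of 5 intronic circles, and the share and rank drawn from it, may thus hold a duplicate. Both ciRNA1023 and ciRNA1024 were listed at 0 in group A and had a value in 1 library of group B in the authors' deposited table. In a 742-nt intron of Greb1-207, ciRNA1023 stopped 31 nt short of the 3′ splice site, while ciRNA1024 spanned the whole 404 nt of intron 10. The listed end of ciRNA1024 is thus the 3′ splice site itself, and not a branch point short of it as in the lariat form described above.

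**Figure D2:**
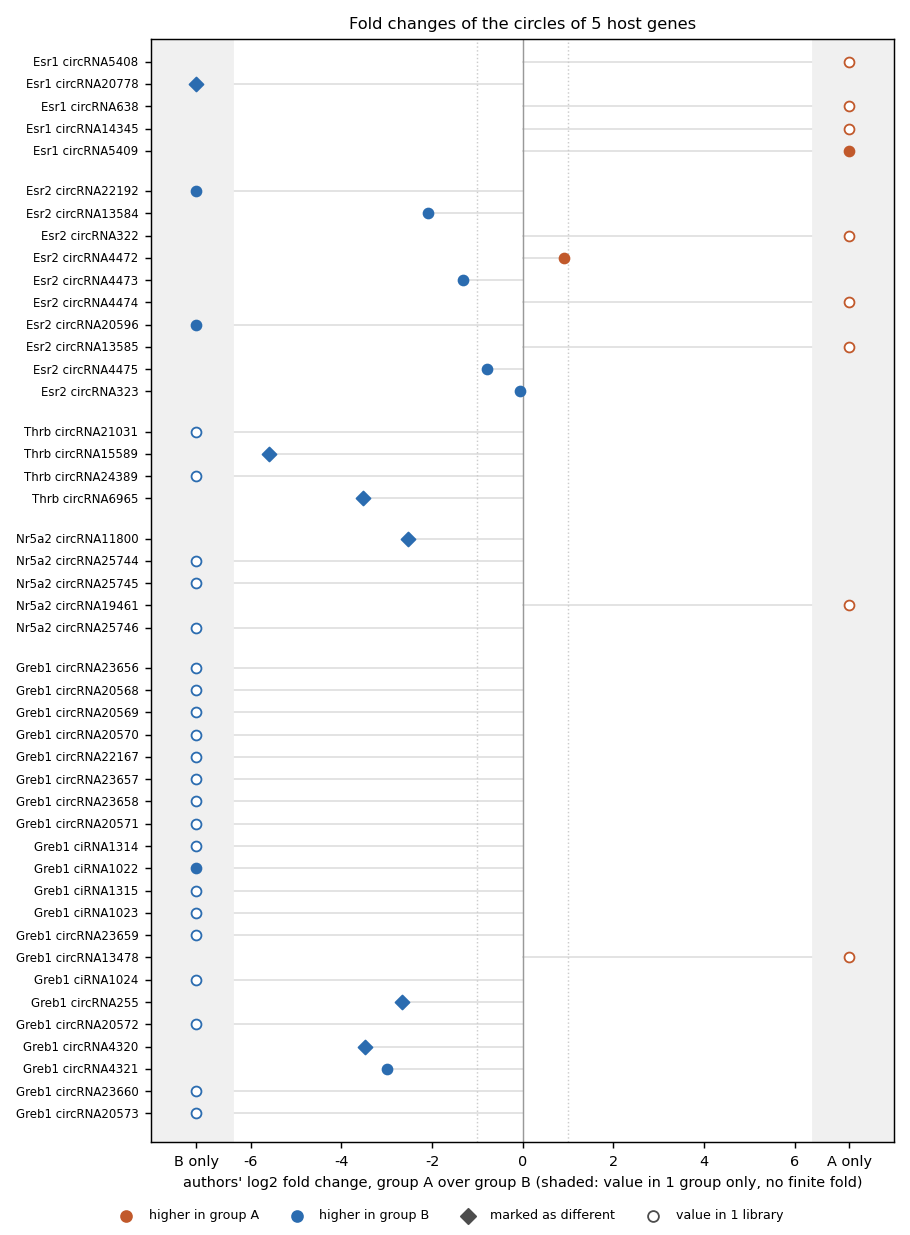
Log2 fold change of group A over group B for each of the 45 circles as the authors deposited it, circles down the page by host. The shaded edges hold circles with values in group A only (right) or in group B only (left), which have no finite fold change, and open symbols are circles with a value in 1 library. All 6 marked circles (diamonds) lie left of 0, Esr1 has 4 of 5 circles at the A only edge, and Greb1 has 20 of 21 circles left of 0.

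The authors marked a circle as different where p was under 0.05 and the log2 fold change was 1 or more in either direction. By this rule 6 of the 45 circles were marked in the authors' deposited table, all lower in group A: 1 of Esr1, 2 of Thrb, 1 of Nr5a2, 2 of Greb1 and 0 of Esr2. The marked share over all circles of the authors' deposited table was 1.75%, 1.23% as higher in A and 0.521% as higher in B. Because these hosts were chosen for such calls, nothing is read from the difference between the members' count and this background. After adjustment for all circles, the authors' deposited table had all 6 at p = 0.522. The smallest adjusted value there was 0.425, so none of the 27999 circles (0.0%) in the authors' deposited table passed 0.05, although 545 (1.95%) had an unadjusted p under 0.05. No source used here names the test. Just inside the p threshold lay Greb1 circRNA4320 (p = 0.0498) and the nearest outside was Esr1 circRNA5409 (p = 0.19) in the authors' deposited table. Around the fold threshold lay Esr2 circRNA4473 (log2 fold change -1.33) inside and Esr2 circRNA4472 (0.91) outside in the authors' deposited table, neither with p under 0.05.

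A value in 1 library was all that 29 of the 45 circles had (64.4%), against 62.0% of the catalogue, and 16 had values in at least 2. Values in group B only were held by 25 of the 45 circles, against 24.5% of the catalogue, and values in group A only by 9 of 45, against 46.5% of the catalogue, in the authors' deposited table. Of the 16 circles, 2 were higher in group A and 14 lower, while 29.9% of the 10644 such circles of the catalogue were lower in group A in the authors' deposited table. Among circles with values in both groups, the authors' deposited table had 10 of 11 lower in group A, with a median log2 fold change of -2.54. For the 8107 such circles of the catalogue the authors' deposited table gave a median of 0.42, with 32.7% lower in group A. This direction is what the hosts were chosen for.

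The introns beside a circle were long for Esr1, Thrb and Nr5a2 and short for Greb1. By the authors' intron coordinates, the 2 introns beside a circle averaged 53815 nt at the median of the 5 Esr1 circles (32793 to 57932 nt), longer than the flanks of 95.7% of placed circles. The median was 29258 nt over 4 Thrb circles (10653 to 68917 nt) and 25568 nt over 5 Nr5a2 circles (5757 to 43080 nt). It was 6155 nt over 10 Esr2 circles and 1895 nt over 16 Greb1 circles (765 to 24725 nt). The median intron of the host isoforms was 37049 nt in Esr1-204, 7061 nt in Esr2-201, 15366 nt in Thrb-201, 5853 nt in Nr5a2-201 and 1699 nt in Greb1-212. The order of hosts by these medians is not that by their flanks, since Nr5a2 lies below Esr2 here and above it there.

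The mean of the 2 flanking introns was set against the median of the other introns of the named isoform. The flanking mean was larger for 25 of 38 member circles (65.8%), with a median ratio of 1.45. Over the catalogue it was larger for 84.8% of 25711 circles, with a median ratio of 2.69. A mean and a median are unlike measures, so an even split is not the reference. These 38 are the members with both ends on exon ends of the isoform the authors name. They leave out Nr5a2 circRNA25744 and circRNA25745, which have flanks of 19898 and 5757 nt, the 2 shortest of that host. By host the count was 3 of 3 for Nr5a2, 3 of 4 for Thrb, 4 of 5 for Esr1, 10 of 16 for Greb1 and 5 of 10 for Esr2. The downstream intron alone was longer for 20 of 38 (52.6%) and the upstream intron alone for 24 of 38 (63.2%). Circles of a host share introns, so these counts describe 5 genes and no test was made.

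**Figure D3:**
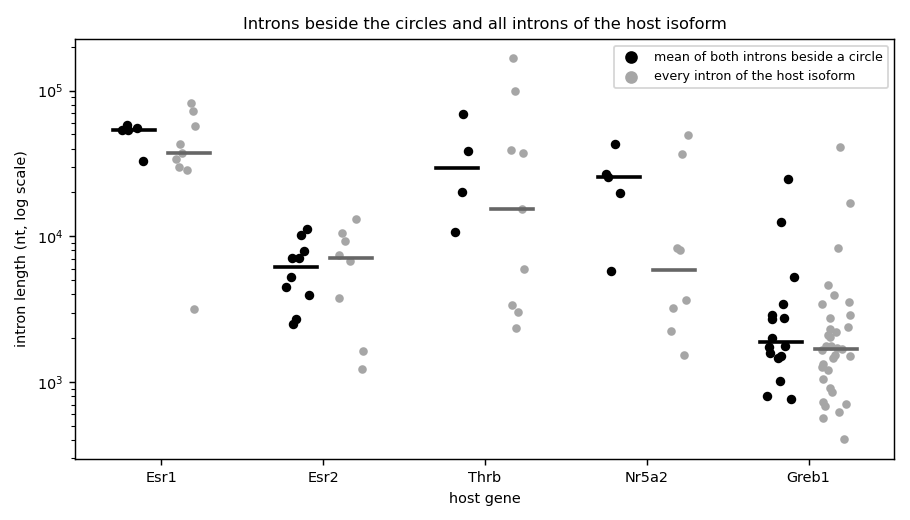
Intron lengths in nt on a log axis for the 5 hosts, with the mean of both introns beside each circle in black, every intron of the host isoform in grey, and bars at the medians. Esr1 circles lie between 32793 and 57932 nt, while Greb1 circles have a median of 1895 nt, beside Greb1 introns of like length.

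Other nuclear receptor genes were taken as a list of 45, of which 19 hosted 57 circles and 26 hosted none, among them Pgr (the progesterone receptor), Vdr (the vitamin D receptor) and the Nr4a genes. None of the 57 circles was marked in the authors' deposited table, where 1.75% of all circles were. A circle from 1 library cannot reach the p threshold, and nothing about the list is read from this count. Of the 15 circles with values in at least 2 libraries, 10 were higher in group A and 5 (33.3%) lower in the authors' deposited table. Of the 10, 4 were of 1 gene, Nr2c2, so these counts are not of separate genes. Nr2c2 circRNA1948 had the smallest p of the 15 in the authors' deposited table (log2 fold change 2.01, p = 0.0793). The share lower in the catalogue was alike, at 29.9% of such circles. The median log2 fold change over the 10 with values in both groups was 0.72, against 0.42 in the catalogue. The closest relatives of the members had no marked circle. Thra, the paralog of Thrb, had 3 circles, of which 1 had a finite fold change, put at 0.27 on the log2 scale by the authors' deposited table (p = 0.903). Nr5a1 (steroidogenic factor 1), the paralog of Nr5a2, had 1 circle, with a value in 1 library of group B and 0 in group A in the authors' deposited table. The retinoid X receptor gene Rxra, whose product pairs with thyroid hormone receptors, had a circle that the authors' deposited table put at a log2 fold change of 1.97 (p = 0.104). Rarb, a retinoic acid receptor gene, had one at 1.07 on that scale in the authors' deposited table (p = 0.538). Of the 15 circles, the 5 lower in group A by the authors' deposited table were of Nr1d2, Nr1h4, Nr3c2, Pparg and Rxrb. Rxrb is a retinoid X receptor gene like Rxra, and the authors' deposited table put its circle at -0.43 on the log2 scale (p = 0.848).

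Coregulators, the proteins through which nuclear receptors activate or repress genes, were hosts in 27 of 29 cases, with 220 circles. The authors' deposited table marked 2 of these circles (0.909%), of the histone-modifying enzyme genes Kdm6a (p = 0.0186) and Kmt2c (p = 0.0265). Both had values in group A and 0 in group B in the authors' deposited table. Of the 93 coregulator circles with values in at least 2 libraries, 74 were higher in A and 19 (20.4%) lower in the authors' deposited table. In the catalogue 29.9% of such circles were lower. Nrip1, which encodes a corepressor needed for ovulation in mice, had both of its circles lower in group A. Their log2 fold changes were -0.89 (p = 0.0434) and -1.42 (p = 0.092) in the authors' deposited table, and neither was marked.

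Circles of genes listed for ovarian cell types were counted in the same way, since whole ovaries mix these cells. Of the 18 genes listed for granulosa and luteal cells and steroid synthesis, 12 hosted circles. With values in at least 2 libraries there were 15 of their circles, 7 higher in A and 8 lower, and 1 of them was marked in the authors' deposited table, Prkar2b circRNA4362 (log2 fold change -2.28, p = 0.00869). The 8 lower in group A came from 7 genes. The luteinizing hormone receptor gene Lhcgr had 2 of them, 1 with a log2 fold change of -5.48 (p = 0.0581) and 1 listed at 0 in group A (p = 0.214), by the authors' deposited table. Single circles of the steroid synthesis genes Cyp11a1 (p = 0.269), Cyp19a1 (p = 0.228) and Hsd17b1 (p = 0.237) were listed at 0 in group A too, by the authors' deposited table. Scarb1, the lipoprotein receptor gene, had 1 at -3.66 (p = 0.454), and Igf1r, the insulin-like growth factor receptor gene, 1 at -0.06 (p = 0.893), by the authors' deposited table. The 7 higher in group A were 3 of the growth hormone receptor gene Ghr, 3 of Igf1r and the other Prkar2b circle. Of these the authors' deposited table gave Ghr circRNA1094 a log2 fold change of 0.71 (p = 0.648), and Igf1r circRNA1703 and circRNA8063 changes of 1.22 (p = 0.147) and 0.01 (p = 0.991), and listed the other 4 at 0 in group B. Receptor genes, which are not steroid synthesis genes, lay on both sides: Ghr and Igf1r among the higher, and Lhcgr, Scarb1 and Igf1r among the lower. The split of 7 and 8 thus depends on the makeup of the list. Oocyte genes (7 of 15 hosted circles) had 7 such circles higher in A and 0 lower, among them 4 of Kit with log2 fold changes of 1.09 to 2.33 in the authors' deposited table, none marked. Stroma and theca genes (6 of 10) had 3 higher in A and 0 lower, and endothelial and leukocyte genes (6 of 10) had 5 higher in A and 1 lower, with no circle marked in the authors' deposited table. In the catalogue 29.9% of circles with values in at least 2 libraries were lower in group A, and 1.75% of all circles were marked. The cell type lists are small, and nothing is read from their counts. Among the listed genes, Foxl2, Fshr, Gdf9 and Bmp15 had no circle in the catalogue. Whether the exon structure of these genes allows a circle is not considered here. Summed levels per list are not analysed here. The part of cell type in the members' differences was not tested, and in whole ovaries fewer cells of a type and less RNA per cell cannot be told apart.

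**Figure D4:**
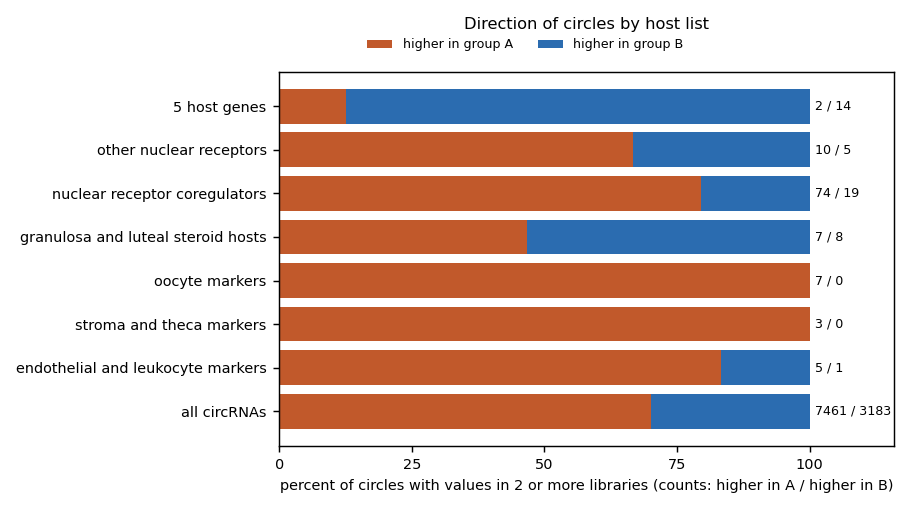
Share of circles higher in group A (orange) and higher in group B (blue) among circles with values in 2 or more libraries, by host list, with the counts at the right. The 5 host genes have 2 circles higher in A and 14 higher in B, other nuclear receptors 10 and 5, coregulators 74 and 19, and the whole catalogue 7461 and 3183.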

How the data were processed

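Per the labels' protocols, total RNA (5 µg) was treated with RNase R (3 units per µg, 15 min, 37 °C), strand-specific libraries were made with random hexamers, and 150 nt paired-end reads were taken. The submitters' processing notes name Bowtie 0.12.2 and the GRCm38 build. The sources used here name no circRNA caller, filter, annotation or test. The authors deposited a log2 fold change of A over B, a p-value and an adjusted p-value per circle; per the file headers these belong to groups named A and B, and the log2 fold change is infinite for a circle listed at 0 in 1 group. Because the letters match no sample label, 24 columns of values per library and 2 columns of group means were not used, so depth is unknown and no further test, interval or block was computed on expression. Group means of the members were seen during the work and then left out of every value. The labels do not say that libraries are separate animals, so the deposited p-values may measure technical spread only. Both tables were checked to hold the same circles, with 1 line left out of each.

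A deposited p-value of 0.423 (tolerance 1e-09) is what an unequal-variance test gives when a single library holds a value, and circles with it were taken as from 1 library. This was tested on simulated data, as was the limit of 0.184 for values in 2 of 3 libraries. Exonic circles were placed on GENCODE M21 with Python 3.11.15 and pandas 2.3.3. The host isoform is the coding isoform that holds most circles, then the one with most exons. Zinc fingers were found in the translated coding sequence by their cysteine spacing. Sequences are from the GENCODE transcripts.

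All 45 circles are named or counted. Described singly were marked circles, the largest circle and the one sharing most sites per host, and those nearest the thresholds; others were added after their values were seen. Members and lists were chosen with earlier results of these data known.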

Additional observations from a re-analysis of the deposited data

How the results depend on the processing

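The count of 6 marked circles was the same with a stricter fold threshold (2 on the log2 scale in place of 1) and with none. No other outcome was possible, since all 6 members with p under 0.05 in the authors' deposited table had log2 fold changes of -2.54 or lower. The count was 5 among circles with values in both groups. It was 1 (Nr5a2 circRNA11800) at p under 0.01 and 0 at a deposited adjusted p under 0.05, where 6 had an unadjusted p under 0.05; both are stricter thresholds on the same deposited values. The share of circles lower in group A, 87.5% of 16, ran from 77.8% (circles from 1 library included) to 92.9% (without Esr1). It was 86.7% without intronic circles, a setting chosen after seeing the data. In the catalogue the share was 29.9% of 10644 circles. The hosts were chosen for this direction, so the narrow range lends it no support. Flanking introns were longer for 52.6% to 65.8% of circles under the settings tried, and 5 of 11 coding circles (45.5%) with values in 2 or more libraries had a length divisible by 3. No paired analysis was possible because the columns of values per library could not be matched to samples. For the same reason no library could be left out in turn. Reverse-complementary sequence in the flanking introns was planned and not run, since intron sequence was not used here. Depth per library is unknown, and 29 of 45 circles rest on 1 library.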
